A study of Mus musculus with 20 samples.

Results

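The guanylate-binding proteins (GBPs) are large GTPases that interferons, foremost interferon gamma, switch on in immune and other cells. They assemble on the vacuoles and surfaces of intracellular microbes and help to open the inflammasome route of cell death. In the mouse the RefSeq annotation (GRCm38.p6) places them in 2 gene clusters, one on chromosome 3 (Gbp2, Gbp2b, Gbp3, Gbp5, Gbp7) and one on chromosome 5 (Gbp4, Gbp6, Gbp8, Gbp9, Gbp10, Gbp11).

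The 7 genes described here are Gbp8, Gbp2, Gbp3, Gbp4, Gbp6, Gbp7 and Gbp9, each taken by the probe set that carries its symbol alone, and by the brightest one had there been several. Of the 7 genes, 5 had such a probe set and each had 1, out of 19938 genes with a probe set of their own on the array. Gbp2 and Gbp6 had none: Gbp2 lies on a probe set shared with Gbp2b, and Gbp6 on a probe set shared by the chromosome 5 genes Gbp4, Gbp6, Gbp8, Gbp9, Gbp10 and Gbp11. The chromosome 5 genes are close paralogues, so cross-hybridisation between their probes could not be resolved with these files.

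The study asked whether islets of Langerhans of male donors respond to pregnancy as female islets do. RNA of 20 samples was hybridised to Mouse Gene 1.0 ST arrays, and levels are the authors' log2 values, on which a difference of 1 is a doubling. Islets were taken from non-pregnant female mice (NP, n = 4) and from females 12.5 days into a pregnancy (P12.5, n = 4), all C57bl6/J and not transplanted. Islet grafts came from female donors (NP, n = 3; P12.5, n = 3) and from male donors (NP, n = 3; P12.5, n = 3) of the same background, about 12 weeks old. The study mated only recipients whose blood glucose had been restored after the transplant. All graft recipients were females aged 8 to 12 weeks, made diabetic with streptozotocin, that carried the islets under the capsule of the left kidney. NP and P12.5 in a graft therefore describe the host. The age of the mice that gave the non-transplanted islets is not given in the sources used here. Replicates are labelled as biological, but no label ties an array to an animal. The islet arrays are labelled as a reanalysis, so an earlier hybridisation and the absence of a transplant cannot be told apart in any comparison of grafts with islets.

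Array medians lay between 5.9 and 6.0 and replicate arrays correlated at 0.971 to 0.989 over all probe sets. Array 1 of the NP islets stood apart in its top level, 13.4 against at least 14.4 on each other array. The beta cell markers, 7 genes including Ins2, Iapp and Pdx1, averaged 10.5 to 11.2 on every array. Grafts also held other cells: the mean of 20 immune markers was 6.06 to 6.29 on the islet arrays and 7.19 to 8.49 on the graft arrays, and that of 14 kidney markers was 5.56 to 5.67 and 6.18 to 8.92. Acinar markers went the other way, from 8.14 to 10.3 on the islet arrays to 5.06 to 5.44 on the graft arrays. In such bulk samples, fewer cells of a type and less RNA per cell cannot be told apart.

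Gbp8 was the only one of the 5 measured genes whose rise with pregnancy passed the thresholds given below, in islets and in female grafts. In male grafts it did not pass them. Gbp8, on chromosome 5, is one of the less studied GBPs. The study assayed its mRNA by quantitative RT-PCR with 2 primers and a probe, shown here 5′ to 3′ because they are the only Gbp8 sequences in the files used:
Gbp8 forward primer: aagaacgacttgtggat
Gbp8 probe: catgattccctggagaaactacattatgtc
Gbp8 reverse primer: ggatttggtgaagacttt

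On the arrays Gbp8 was at 5.7, 5.4, 5.3 and 5.2 in the NP islets. At P12.5 it was at 6.8, 7.1, 7.1 and 7.1, above every NP islet array by at least 1.1. The mean rose from 5.40 ± 0.216 (SD, n = 4) to 7.03 ± 0.150 (n = 4), a log2 difference of 1.63 ± 0.120 (SE) or 3.08-fold, with an adjusted p of 0.000348 by limma. A gene was called here when its adjusted p was under 0.05 and its fold at least 1.5. By that rule 1 of the 5 measured genes was called higher at P12.5 in islets, while 0.908% of all genes were. The study had put Gbp8 in its pregnancy signature on account of its rise in P12.5 islets, so this rise is not independent evidence. Its quantitative RT-PCR also found Gbp8 mRNA higher in P12.5 than in NP islets. Beside Gbp8, the macrophage marker C1qa (0.95) was the 1 of 20 immune markers called higher in P12.5 islets, and the immune marker means overlapped.

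In female grafts Gbp8 was at 7.0, 7.0 and 6.8 in NP hosts. In P12.5 hosts it was at 7.9, 7.8 and 7.9, again without overlap. The mean rose from 6.93 ± 0.115 (n = 3) to 7.87 ± 0.0577 (n = 3), by 0.93 ± 0.133 or 1.91-fold (adjusted p = 0.0117). Gbp8 was again the 1 gene of 5 called higher, against 0.717% of all genes. With P12.5 array 2 left out the difference was 0.97 and the adjusted p 0.0502. Kidney marker levels moved with the groups compared, averaging 8.04 to 8.92 in the NP and 6.18 to 7.54 in the P12.5 female grafts, although none of the 14 was called. With the kidney marker mean as a covariate the Gbp8 difference was 0.88, with an adjusted p of 0.159, the highest of 15 settings, which began at 0.00995. The same covariate took the probe sets called over the whole array from 602 to 7. Immune marker means overlapped, at 7.45 to 7.81 in NP and 7.19 to 8.03 in P12.5 female grafts.

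In male grafts Gbp8 was at 7.8, 7.7 and 7.3 in NP hosts. It was at 7.8, 7.9 and 7.7 in P12.5 hosts, so the groups overlapped. The means were 7.60 ± 0.265 (n = 3) and 7.80 ± 0.100 (n = 3), a difference of 0.20 with a 95% interval of -0.09 to 0.49 (adjusted p = 0.43). None of the 5 genes was called higher, against 0.306% of all genes. The upper end of the interval, 0.49, lies below the differences measured in islets and in female grafts. The study likewise reported no significant induction of Gbp8 in male grafts, where it was already higher before pregnancy than in female grafts. In cultured islets of both donor sexes, however, the study found Gbp8 mRNA raised by placental lactogen.

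Donor sexes were set against each other within each host state. P12.5 grafts of both donor sexes lay between 7.7 and 7.9, and male minus female was -0.07 (interval -0.36 to 0.23, adjusted p = 0.977). In NP hosts the male grafts exceeded the female ones by 0.67 (interval 0.37 to 0.96) without overlap, yet the adjusted p over all probe sets was 0.589. With NP male array 3 left out, the difference was 0.82 and the adjusted p 0.0459. The pregnancy difference itself was smaller by 0.73 in male than in female grafts (interval of male minus female, -1.15 to -0.32), with an adjusted p of 0.955. These donor sex comparisons share the NP female arrays with the pregnancy comparison in female grafts. Of the 5 genes, 0 were called higher in male than in female grafts, in NP hosts (0.0201% of all genes) or in P12.5 hosts (0.0150%), and 0 in the donor sex by pregnancy interaction (0% of all genes). Over grafts of both sexes Gbp8 rose by 0.57 ± 0.0941 (adjusted p = 0.00646), a fold just under 1.5. It was therefore not called there, nor was any other of the 5 genes, against 0.687% of all genes. Leaving out NP male array 1 or 2, or P12.5 male array 3, brought that difference to 0.59 to 0.62 and past the fold.

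**Figure D1:**
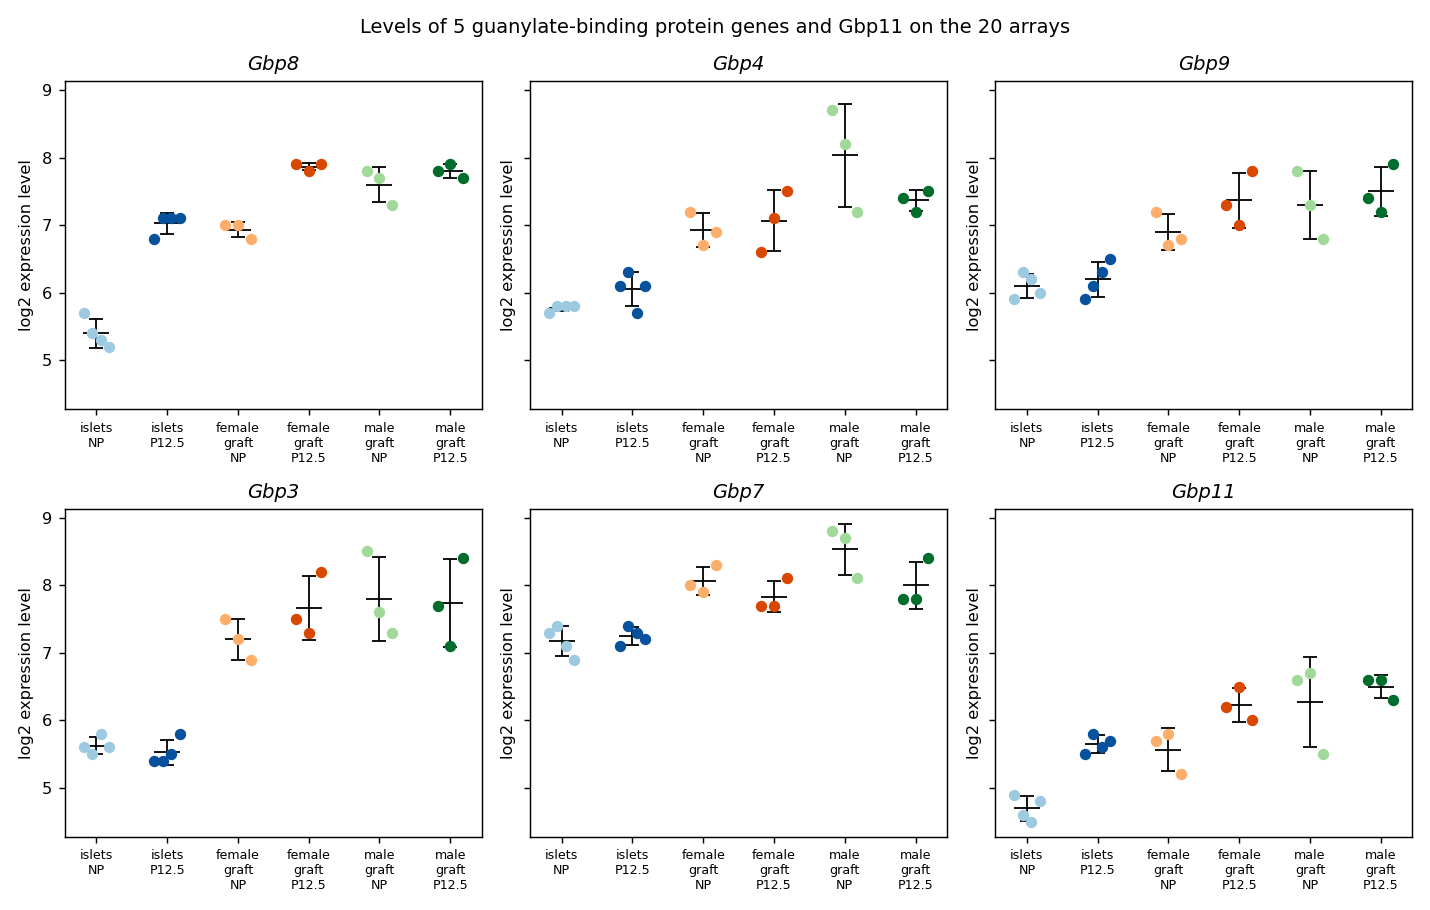
Log2 levels of the 5 measured GBP genes and of Gbp11 on each array (points) in the 6 groups (x axis), with group mean and SD as bars. Gbp8 at P12.5 lies above NP in islets and in female grafts without overlap, at 6.8 to 7.1 over 5.2 to 5.7 and at 7.8 to 7.9 over 6.8 to 7.0, while the male graft groups overlap.

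Across the 6 groups Gbp8 was lowest in NP islets. Next came NP female grafts and P12.5 islets, whose arrays overlapped at 6.8 to 7.0 and 6.8 to 7.1. NP male grafts (7.3 to 7.8), P12.5 male grafts (7.7 to 7.9) and P12.5 female grafts (7.8 to 7.9) were highest and overlapped each other.

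The other 4 GBP genes were not called with pregnancy in islets or in grafts. Gbp4 and Gbp9 are the chromosome 5 neighbours of Gbp8. Gbp4 was at 5.7, 5.8, 5.8 and 5.8 in NP islets and at 6.1, 6.3, 5.7 and 6.1 at P12.5. The groups touched at 5.7, and the difference was 0.28 (interval 0.01 to 0.54, adjusted p = 0.401). Gbp9 overlapped throughout, at 5.9 to 6.3 in NP and 5.9 to 6.5 in P12.5 islets, with a difference of 0.10 (interval -0.21 to 0.41).

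In female grafts Gbp4 was at 7.2, 6.7 and 6.9 in NP and at 6.6, 7.1 and 7.5 in P12.5 hosts, and the difference was 0.13 (interval -0.59 to 0.86). Gbp9 was at 7.2, 6.7 and 6.8 in NP and at 7.3, 7.0 and 7.8 in P12.5 hosts, a difference of 0.47 (interval -0.15 to 1.08). In male grafts Gbp4 was at 8.7, 8.2 and 7.2 in NP and at 7.4, 7.2 and 7.5 in P12.5 hosts. The difference was -0.67 (interval -1.39 to 0.06). Gbp9 in male grafts was at 7.8, 7.3 and 6.8 in NP and at 7.4, 7.2 and 7.9 in P12.5 hosts, with 0.20 (interval -0.42 to 0.82). All these groups overlapped. In male grafts neither sign was stable: with the immune marker mean as a covariate Gbp4 was at 0.17 and Gbp9 at 0.82, and without NP array 3 Gbp9 was at -0.05.

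Gbp3 and Gbp7 lie on chromosome 3, and Gbp7 is linked in other work to the oxidative and autophagic killing of bacteria. In islets Gbp3 was at 5.5 to 5.8 in NP and at 5.4 to 5.8 at P12.5, a difference of -0.10 (interval -0.34 to 0.14). Gbp7 was at 6.9 to 7.4 in NP and at 7.1 to 7.4 at P12.5, a difference of 0.08 (interval -0.19 to 0.34). The intervals of both genes exclude a rise of the size seen for Gbp8 in the same islets. In female grafts the differences were 0.47 for Gbp3 and -0.23 for Gbp7, and in male grafts -0.07 and -0.53, with adjusted p from 0.217 to 0.928. Over both donor sexes the differences were 0.20 for Gbp3 and -0.38 for Gbp7. The interval of Gbp7 in male grafts, -1.02 to -0.05, lay below 0, but the P12.5 arrays at 7.8, 7.8 and 8.4 overlapped the NP arrays at 8.8, 8.7 and 8.1. Of the 20 immune markers, 2 were called lower in P12.5 than in NP male grafts, against 0.451% of all genes. They were the B cell genes Cd79a (-1.23) and Ms4a1 (-1.53). Over the 20 markers 14 differences were negative and 5 positive. The T cell marker Cd3g went from a mean of 8.23 to 6.43 without being called, and the macrophage marker Csf1r from 8.40 to 8.43. With the immune marker mean as a covariate the Gbp7 difference was -0.16 (adjusted p = 0.732).

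Gbp11, a chromosome 5 neighbour that RefSeq lists as a transcribed pseudogene, was the other GBP entry with its own probe set that was called higher in P12.5 islets. Its arrays read 4.9, 4.6, 4.5 and 4.8 in NP and 5.5, 5.8, 5.6 and 5.7 at P12.5. The groups did not overlap and the difference was 0.95 ± 0.107 (adjusted p = 0.00306), but the NP arrays were close to 4.8, the lower quartile of all values. In female grafts Gbp11 was at 5.2 to 5.8 in NP and 6.0 to 6.5 in P12.5 hosts, a difference of 0.67 that was not called (adjusted p = 0.209), and in male grafts the difference was 0.23 (interval -0.39 to 0.86). Gbp2b and Gbp5 stayed within 4.5 to 4.8 on all 8 islet arrays, at or below the lower quartile. In male grafts Gbp5 was at 7.2, 6.2 and 5.9 in NP and at 5.6, 5.2 and 6.0 in P12.5 hosts, a difference of -0.83 (interval -1.50 to -0.17) that was not called (adjusted p = 0.174).

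The probe set shared by 6 chromosome 5 genes, Gbp6 and Gbp8 among them, also rose in islets, from 5.6, 5.7, 5.5 and 5.8 to 6.4, 6.7, 6.5 and 6.9. The difference was 0.98 ± 0.118 (adjusted p = 0.00451), and no single gene can be read from it. The probe set shared by Gbp2 and Gbp2b was at 5.2 to 5.5 in NP and 5.1 to 5.5 in P12.5 islets, a difference of -0.08.

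**Figure D2:**
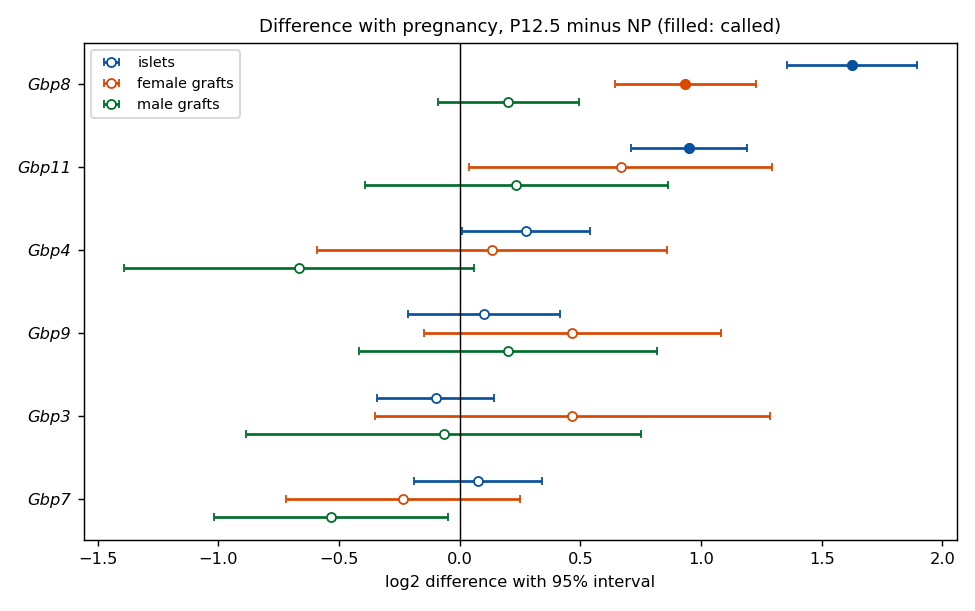
Log2 difference P12.5 minus NP (x axis, with 95% interval) of Gbp8, Gbp11 and 4 other GBP genes in islets, female grafts and male grafts; filled points were called. Gbp8 was called in islets (1.63) and female grafts (0.93) and Gbp11 in islets (0.95), and the other intervals for Gbp3, Gbp4, Gbp7 and Gbp9 lie around or near 0.

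Grafts against islets was the comparison in which most of the family differed. In NP hosts all 5 measured genes were called higher in female grafts than in islets, where 6.50% of all genes were. At P12.5, 4 of 5 were called, against 4.03% of all genes. The median log2 difference of the 5 genes was 1.16 in NP and 1.02 at P12.5, beside -0.08 and -0.07 over all genes.

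Gbp3 had the largest differences of the 5 genes. Against 5.4 to 5.8 on the 8 islet arrays it reached 7.5, 7.2 and 6.9 in NP and 7.5, 7.3 and 8.2 in P12.5 female grafts. The differences were 1.58 ± 0.289 (adjusted p = 0.000904) and 2.14 ± 0.289 (adjusted p = 0.000183), the latter 4.41-fold. No graft array overlapped an islet array for Gbp3.

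Gbp8 differed by 1.53 ± 0.129 in NP (2.89-fold, adjusted p = 1.17e-06) and by 0.84 ± 0.129 at P12.5 (1.79-fold, adjusted p = 0.000671), without overlap in P12.5 and with a gap of 1.1 between the NP groups. The site by pregnancy interaction of Gbp8 was -0.69 (interval -1.08 to -0.31), with an adjusted p of 0.14. None of the 5 genes was called for that interaction, against 0.0100% of all genes. Gbp4 was 1.16 ± 0.261 higher in NP grafts (adjusted p = 0.00385) and 1.02 ± 0.261 at P12.5 (adjusted p = 0.0261). The latter call was lost when P12.5 islet array 3 or 4, or P12.5 female graft array 2 or 3, was left out, at 0.80 to 1.03.

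Gbp9 was higher by 0.80 ± 0.233 in NP (adjusted p = 0.0172) and by 1.17 ± 0.233 at P12.5 (adjusted p = 0.00556). Its calls were lost without NP female graft array 1 (0.65, adjusted p = 0.0784) and without P12.5 female graft array 3 (0.95, adjusted p = 0.0502). Gbp7 was higher by 0.89 ± 0.184 in NP (adjusted p = 0.00216) and by 0.58 at P12.5, which was not called (interval 0.20 to 0.97, adjusted p = 0.0649). Without P12.5 female graft array 3, 2 of the 5 genes were called at P12.5.

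Of the GBPs outside the 7 genes, Gbp5, an activator of the NLRP3 inflammasome, was at 5.3 to 5.8 on the female graft arrays and was called at both stages, with 1.04 and 1.01. The latter call was lost without P12.5 female graft array 2 or 3, at 0.925. Gbp11 was called in NP grafts only, with 0.87, and its 0.58 at P12.5 had an adjusted p of 0.127; the site by pregnancy interaction of Gbp11 was -0.28 (interval -0.95 to 0.39). Gbp2b stayed at 4.7 to 5.3 on the female graft arrays and was not called. The probe set it shares with Gbp2 rose from levels of 5.1 to 5.5 on the islet arrays to 6.8 to 8.0 on the female graft arrays, with differences of 2.03 and 2.50 (adjusted p = 0.000164 and 4.57e-05). The shared chromosome 5 probe set differed by 1.88 and 1.34.

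Immune markers moved with these differences, with 17 of 20 called higher in NP and 14 of 20 in P12.5 female grafts, among them the macrophage markers Csf1r and Adgre1. In NP islets 3 of the 20 were below the lower quartile, namely Cd3g, Ms4a1 and Ncr1. With the immune marker mean as a covariate, Gbp8 kept a difference of 1.27 ± 0.316 in NP (adjusted p = 0.0442), and 0.57 ± 0.320 at P12.5 (adjusted p = 0.507). In the same fits Gbp3 was at -0.42 and 0.12, Gbp4 at -0.76 and -0.93, Gbp7 at 0.01 and -0.31, and Gbp9 at -0.73 and -0.38. Of the 5 genes, Gbp8 alone was then called in NP and none at P12.5. Of all 35511 probe sets, 909 were called in NP (3911 without the covariate) and 40 at P12.5 (1438 without it). Grafts and islets did not overlap in the marker mean, so the covariate and the site largely carry the same information, and the standard errors grew. With the kidney marker mean instead, 1 of 5 genes was called in NP (Gbp8, 1.65) and 2 at P12.5 (Gbp8, 0.90, and Gbp3, 1.97). Of all probe sets, 91 were called in NP and 585 at P12.5 in these fits. Kidney markers (11 and 5 of 14 called higher), stromal markers (8 and 7 of 10 called higher), endothelial markers (7 and 3 of 12 called lower) and acinar markers (8 and 8 of 8 called lower) moved with the site too. Of these only the kidney markers were entered as a covariate, and the part of the other 3 lists in the GBP levels was not tested. Of all genes, 6.50% were called higher in NP and 4.03% at P12.5. The share called lower was not counted separately. Calls in either direction covered 3911 of 35511 probe sets in NP and 1438 at P12.5.

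Promoters of Gbp2, Gbp3 and Gbp7 on chromosome 3 are shown because interferons act on GBP genes through short elements near the start: the gamma-activated site, GAS, and the interferon-stimulated response element, ISRE. RefSeq windows (GRCm38.p6) matched 3 of the 7 genes, Gbp2, Gbp3 and Gbp7. Each window here is the 250 bases before the transcript start, on the plus strand: Gbp7 chr3:142530086-142530335, Gbp3 chr3:142559794-142560043 and Gbp2 chr3:142620413-142620662. Capitals mark matches to GAS, searched as TTCNNNGAA, and to ISRE, searched as GAAANNGAAA, on either strand:
Gbp7: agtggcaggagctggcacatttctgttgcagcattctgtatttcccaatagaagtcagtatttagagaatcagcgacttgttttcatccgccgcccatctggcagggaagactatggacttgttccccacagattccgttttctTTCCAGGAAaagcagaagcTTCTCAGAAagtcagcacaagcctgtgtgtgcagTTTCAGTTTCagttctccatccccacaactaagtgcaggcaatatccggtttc
Gbp3: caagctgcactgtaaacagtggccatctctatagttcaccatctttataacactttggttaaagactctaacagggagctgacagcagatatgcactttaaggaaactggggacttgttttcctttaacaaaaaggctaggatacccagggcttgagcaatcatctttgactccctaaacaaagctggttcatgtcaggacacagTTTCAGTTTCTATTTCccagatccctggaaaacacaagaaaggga
Gbp2: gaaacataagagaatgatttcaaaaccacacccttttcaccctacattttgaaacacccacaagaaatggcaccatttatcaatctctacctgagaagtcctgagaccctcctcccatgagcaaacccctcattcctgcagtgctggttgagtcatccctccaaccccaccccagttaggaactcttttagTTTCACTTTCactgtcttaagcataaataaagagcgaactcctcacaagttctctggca

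An ISRE match on the minus strand is seen above as its reverse complement. Gbp7 held 2 GAS matches, whose first bases lie at -106 and -87 from the start, and 1 ISRE match at -53. The first of the 2 annotated Gbp3 starts had 2 overlapping ISRE matches at -45 and -39, and its second start had no match to either. Gbp2 had 1 ISRE match at -59. Outside the 7 genes, Gbp5 had 2 GAS matches and 1 ISRE match, and Gbp2b 1 ISRE match. Over all 32851 RefSeq windows of this length, 7.02% held the GAS letters, 2.98% the ISRE letters and 0.332% both. GAS letters read the same on both strands and overlapped no ISRE match in the GBP windows. The study gives the same letters, TTCNNNGAA, as the STAT5 consensus, so GAS matches are not particular to interferon. All these matches describe letters, not measured binding.

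**Figure D3:**
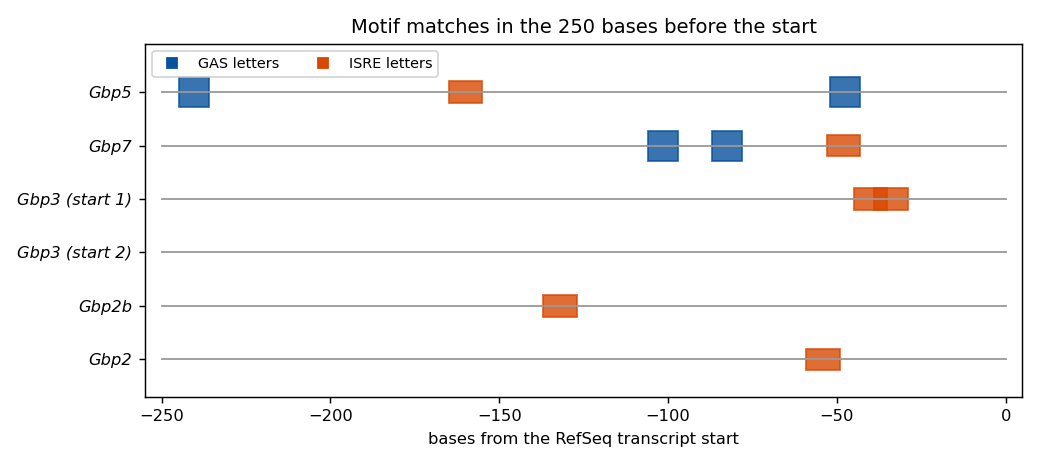
Positions of the GAS and ISRE letter matches (boxes) in the 250 bases before each RefSeq start of 5 chromosome 3 GBP genes; x axis, bases from the start. Gbp5 and Gbp7 hold both kinds, Gbp2, Gbp2b and the first Gbp3 start hold ISRE matches, and the second Gbp3 start has none.

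The genes around the GBPs in the interferon gamma route were described from lists of pathway genes. Ifng itself, the gene of the cytokine, lay between 4.8 and 5.5 on all 20 arrays, close to the lower quartile of 4.8. Of 12 interferon gamma signalling genes, 0 were called with pregnancy in islets, female grafts or male grafts. The shares of all genes called higher with pregnancy were also small, at 0.908%, 0.717% and 0.306%, and 0.451% were called lower in male grafts. A count of 0 in so short a list is therefore no result about the pathway. In female grafts over islets, 2 of 12 were called higher in NP, the receptor gene Ifngr1 (0.68) and the transcription factor gene Irf8 (1.04), and Irf8 (1.01) at P12.5. The shares of all genes called higher were 6.50% and 4.03%. Irf1, a transcription factor that induces GBPs, was at 6.9 to 7.3 in NP and 7.2 to 7.3 in P12.5 islets. In male grafts Irf1 was at 8.5, 8.3 and 7.9 in NP and at 7.4, 7.5 and 7.4 in P12.5 hosts. These groups did not overlap, and the difference was -0.80 (interval -1.18 to -0.42) with an adjusted p of 0.0572, so it was not called.

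Some other interferon-induced genes were also higher in female grafts than in islets. Of all genes, 6.50% were called higher in NP and 4.03% at P12.5. In the same comparison 17 and 14 of 20 immune markers were called higher, and their part in these lists was not tested. Of 6 further interferon-inducible GTPases 2 were called higher at each stage, Iigp1 (1.85 in NP and 1.90 at P12.5) and Irgm1 (1.15 and 1.13), which act with GBPs on microbial vacuoles. Of 11 chemokines and enzymes induced by interferon gamma, 3 were called higher at each stage: Cxcl9 (1.53 and 1.67), Cxcl10 (1.53 and 1.83) and the peptide transporter Tap1 (0.81 and 0.80). Of 8 type I interferon genes, 3 were called at each stage, with Ifnar2 (0.83 and 0.92) and Irf7 (0.94 and 1.58) at both, Irf9 (0.70) in NP and Stat2 (0.65) at P12.5. The calls of Irf7 in NP (0.72 to 1.08) and of Stat2 (0.40 to 0.80) each held in 2 of 7 fits with an array left out. Of 10 inflammasome genes through which GBPs act, 5 were called in NP and 3 at P12.5. Casp1 (1.63 and 1.24), Casp4 (1.13 and 1.19) and Il1b (0.66 and 0.63) were called at both, and Aim2 (0.67) and Naip5 (0.67) in NP. The Il1b call at P12.5 held in 2 of 7 fits with an array left out (0.42 to 0.78). Those of Irf8 and Tap1 at P12.5 and of Aim2 and Naip5 in NP held in 6 of 7, and the other calls of these lists between grafts and islets in 7 of 7.

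**Figure D4:**
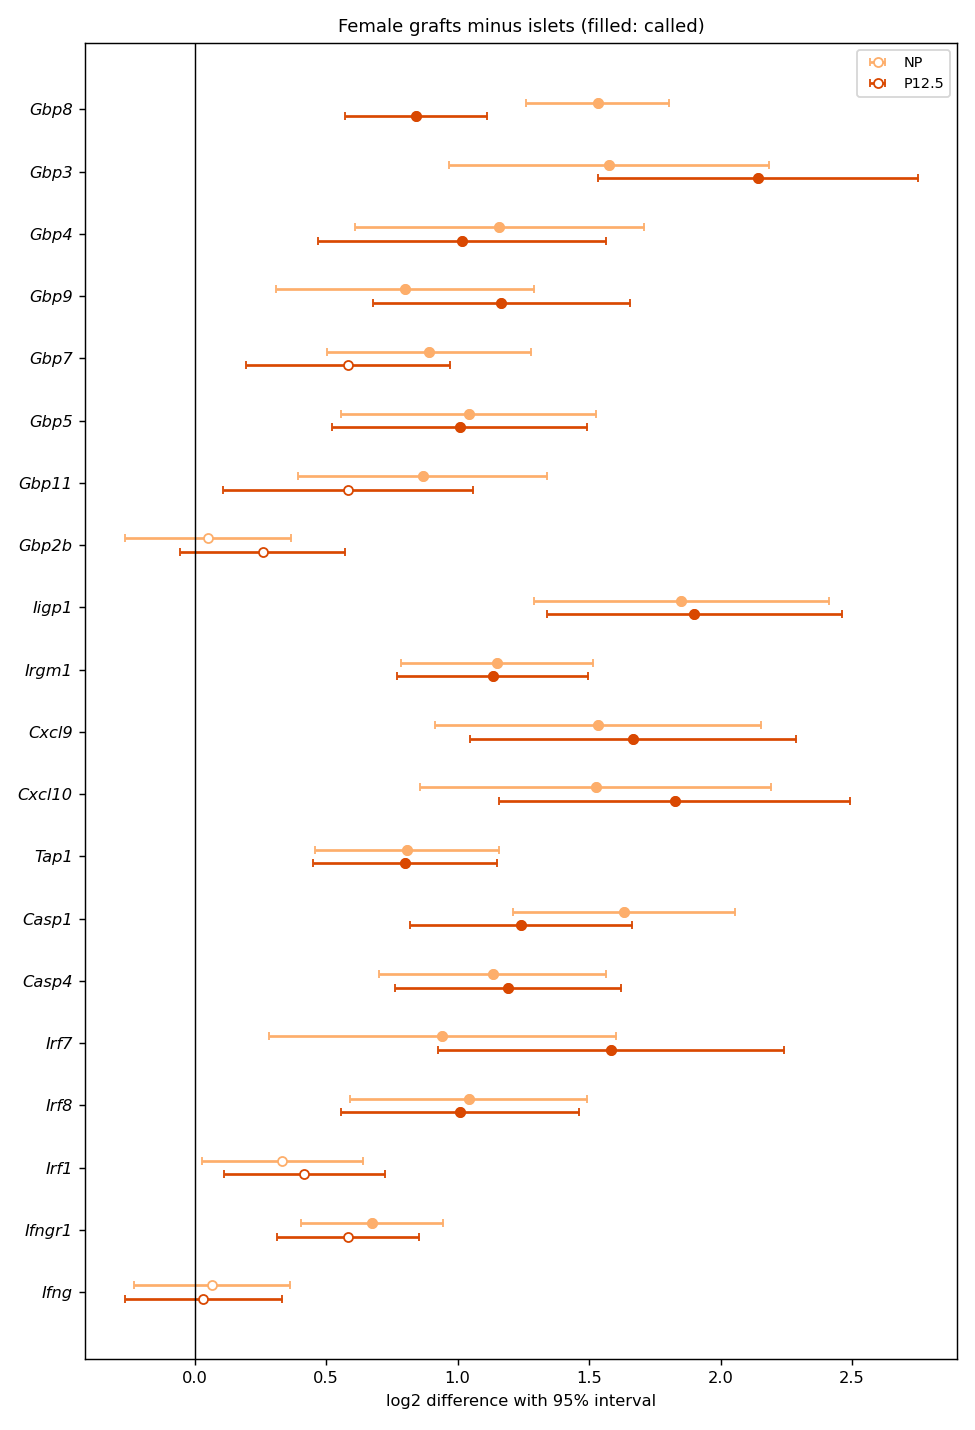
Log2 difference of female grafts minus islets (x axis, with 95% interval) for GBP genes and interferon pathway genes in NP and P12.5; filled points were called. Gbp3, Iigp1, Cxcl9 and Cxcl10 differ by more than 1.5 at both stages, while Gbp2b, Irf1 and Ifng have no filled point.

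With pregnancy these lists held few calls. None of the interferon gamma induced, type I, GTPase or inflammasome genes was called in islets or in female grafts. Of all genes, only 0.908% and 0.717% were called higher there, so lists this short would hold few calls in any case. In male grafts Cd274, the gene of the checkpoint ligand PD-L1, fell by 0.73 (adjusted p = 0.0449), the 1 of 11 interferon gamma induced genes called lower, against 0.451% of all genes. That call held in 1 of 6 fits with an array left out, over which the difference ran from -0.83 to -0.65. Among 10 genes of ATG8 conjugation, which guides GBPs to vacuoles, Gabarap rose in female grafts by 0.77 and over both sexes by 0.65, and Gabarapl1 fell by 0.68 over both sexes and was 0.61 higher in NP female grafts than in islets. With single arrays left out, the Gabarap call in female grafts held in 1 of 6 fits (0.70 to 0.90) and the Gabarapl1 call between grafts and islets in 3 of 7 (0.47 to 0.78), while both calls over both sexes held in 11 of 12. Of 10 prolactin and STAT5 pathway genes, 3 were called higher in P12.5 islets, against 0.908% of all genes. They were Tph1 (4.78), the feedback inhibitor Cish (1.43) and Socs2 (1.10). The median difference of the 10 genes was -0.0375, with 4 positive and 5 negative. Tph1 was also called in female grafts (4.40), male grafts (3.57) and both together (3.98), Cish over both sexes (1.00), and Bcl6 between NP grafts and islets (0.62, held in 5 of 7 fits with an array left out). Tph1 and Cish belong, like Gbp8, to the study's signature.

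Within NP hosts the male grafts had higher GBP levels on the whole, though no difference was called. Male minus female was positive for all 5 measured genes, from 0.40 for Gbp9 to 1.10 for Gbp4 (interval 0.37 to 1.83, adjusted p = 0.78), with a median of 0.60 beside 0 over all genes. The Gbp4 arrays did not separate, at 8.7, 8.2 and 7.2 in male and 7.2, 6.7 and 6.9 in female grafts, which met at 7.2. Immune markers moved the same way, with 18 of 20 higher and the B cell marker Ms4a1 called (1.53, adjusted p = 0.043), and all 11 interferon gamma induced genes were positive with 0 called. The mean of the immune markers was 7.87, 8.16 and 8.49 on the NP male arrays and 7.45 to 7.81 on the NP female arrays. With the immune marker mean as a covariate the differences were 0.53 for Gbp8, 0.28 for Gbp4, 0.10 for Gbp7, -0.23 for Gbp3 and -0.21 for Gbp9, with 0 called. Kidney markers went the other way, lower in NP male grafts for all 14 with 0 called.

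Among the 12 graft arrays, the mean of Gbp3, Gbp4, Gbp7 and Gbp9 was highest on NP male graft array 1, at 8.45, and lowest on NP female graft array 2, at 7.13. That male array also had the highest mean of the immune markers (8.49) and of the 11 interferon gamma induced genes (7.46). Gbp8 did not follow this order closely. Its highest level, 7.9, was shared by P12.5 female graft arrays 1 and 3 and P12.5 male graft array 2. The immune marker means of these arrays were 7.19, the lowest of the 12 grafts, 8.03 and 7.47.

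**Figure D5:**
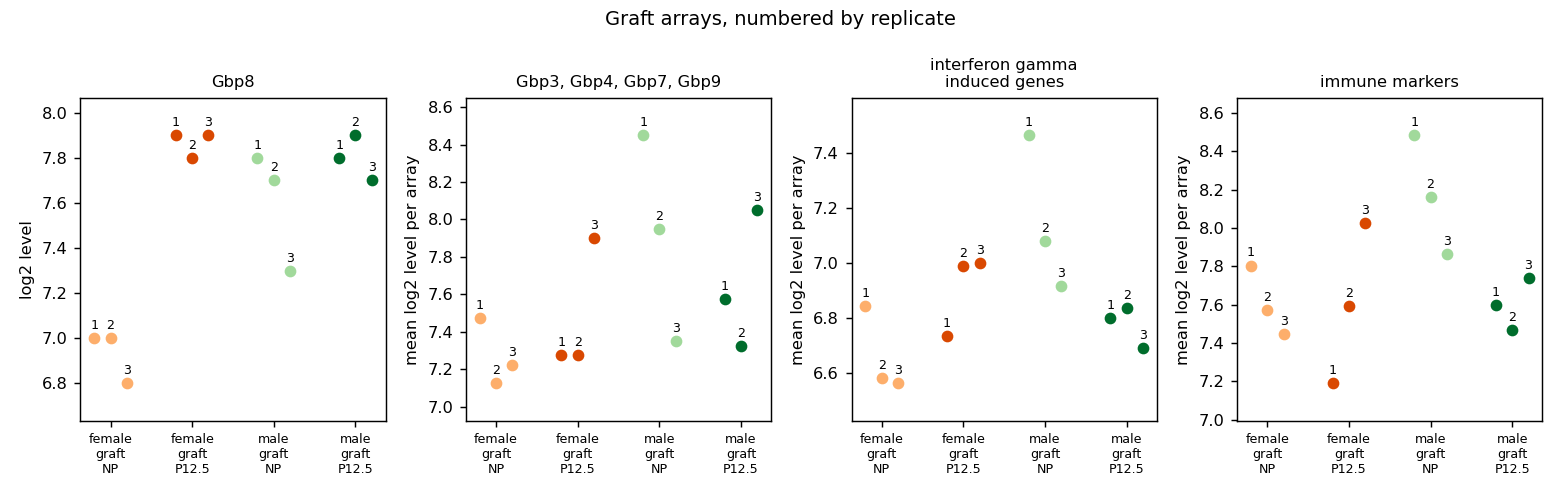
The 12 graft arrays, numbered by replicate, for Gbp8 (log2 level) and for the mean log2 level of 4 other GBP genes, of 11 interferon gamma induced genes and of 20 immune markers; each panel has its own y axis. NP male graft array 1 is the highest in the 3 panels of means, while Gbp8 lies between 7.7 and 7.9 on all 6 P12.5 arrays.

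Over the 20 arrays the levels of Gbp3, Gbp4, Gbp7 and Gbp9 correlated with each other at Pearson's r of 0.825 to 0.962. Those of Gbp8 correlated with these 4 at 0.641 to 0.767. After group means were taken off, the ranges were 0.566 to 0.88 and 0.259 to 0.415. These are descriptions over arrays that share groups and normalization. Outside the 7 genes, the levels most like those of Gbp8 among 19938 genes were Gbp11 (0.932), Plp2 (0.919), B4galt1 (0.911), Arhgap11a (0.908) and Dipk1a (0.903).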

How the data were processed

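Per the labels and the study's methods, total RNA of 20 samples was hybridised to Affymetrix Mouse Gene 1.0 ST arrays. The authors preprocessed the scans with robust multichip analysis in aroma.affymetrix (R 2.12.2) and deposited log2 values rounded to 0.1, so small gaps are rounding steps; they bear no depth, and the number of arrays limits precision. The build of the probe annotation is not given in the sources used here. Of 35511 probe sets, 21789 carried 1 symbol, 1621 several and 12101 none.

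Differences were fitted with limma 3.58.1 in R 4.3.3 on all probe sets with Benjamini-Hochberg adjustment: islets on their 8 arrays, graft contrasts on 12, grafts against islets on 20. The fits were tested on simulated data. Group shares count 19938 genes, each by its brightest probe set. The rule for named genes took the 7 members, other GBPs, called genes of 15 lists, chosen pathway genes and the 5 genes most like Gbp8. The members and lists were chosen with earlier results of these data known. P-values set a difference against the spread between arrays. Alternatives covered normalization, centring, eBayes priors, dim probe sets, the arrays fitted, replicate numbers, marker covariates and single arrays left out.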

Additional observations from a re-analysis of the deposited data

Results flagged for a closer look

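Of 16 sets of 4 islet arrays of a GBP gene, 4 had an array far from the other 3, where chance flags about 1 in 20 sets. They were Gbp8 at 6.8 in P12.5 islets (the others at 7.1), Gbp4 at 5.7 in NP islets (the others at 5.8), Gbp2b at 4.6 in P12.5 islets (the others at 4.7) and Gbp5 at 4.7 in P12.5 islets (the others at 4.6). Apart from Gbp8 these gaps equal the rounding step of 0.1. For Gbp8 the low array is still 1.1 above the highest NP array.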

How the results depend on the processing

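Over 162 repeats of the Gbp8 differences, 154 kept their direction and their side of the threshold, 3 lost and 5 gained the call, and 0 changed sign. Of 648 repeats for Gbp3, Gbp4, Gbp7 and Gbp9, 604 stayed, 15 lost a call, 1 gained one and 28 changed sign. Of 672 repeats for calls of other named genes, 607 stayed, 62 lost the call and 3 changed sign. With kidney markers as a covariate, Gbp8 in female grafts came to 0.88 and was no longer called (0 members called); members called between female grafts and islets went to 1 in NP and 2 at P12.5, and Gbp3 in P12.5 male minus female grafts to -0.0346. With immune markers as a covariate, Gbp8 over both donor sexes came to 0.64 and was called (2 members called, with Gbp9), Gbp8 in P12.5 female grafts minus islets to 0.57 and lost its call, and members called there went to 0, and to 1 in NP. Under that covariate signs changed in NP grafts minus islets for Gbp3 (-0.42), Gbp4 (-0.76), Gbp9 (-0.73) and Gbp5 (-0.49); at P12.5 for Gbp4 (-0.93), Gbp7 (-0.31), Gbp9 (-0.38), Gbp5 (-0.55) and the shared chromosome 5 probe set (-0.10); with pregnancy in male grafts for Gbp3 (0.77) and Gbp4 (0.17), and over both sexes for Gbp4 (0.15); in NP male minus female grafts for Gbp3 (-0.23) and Gbp9 (-0.21); and in the donor sex interaction for Gbp3 (0.30), Gbp4 (0.0226), Gbp7 (0.0667) and Gbp9 (0.34). The cause was not tested.

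With single arrays left out, Gbp8 ranged from 0.87 to 0.97 in female grafts, from 0.49 to 0.62 over both sexes and from 0.57 to 0.82 in NP male minus female grafts. Members called ranged from 0 to 1 in each of these, from 4 to 5 for NP and from 2 to 4 for P12.5 grafts minus islets. Signs changed within -0.27 to 0.38 (Gbp3), -0.0333 to 0.30 (Gbp7) and -0.0667 to 0.35 (Gbp9) for P12.5 male minus female grafts, within -0.40 to 0.28 (Gbp3), -0.05 to 0.45 (Gbp9) and -0.15 to 0.45 (Gbp11) for pregnancy in male grafts, within -0.0833 to 0.37 for Gbp4 in female grafts and -0.36 to 0.0917 in its site interaction, and within -0.0167 to 0.15 for Gbp7 in islets.

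Same-numbered arrays deviated from their group means with correlations of -0.289 to 0.375, so the numbers were not taken to pair samples. With a replicate block the probe sets called in islets went from 257 to 132, and Gbp8 stayed called there (1.63, adjusted p = 0.0371) and in female grafts (0.93, adjusted p = 0.0217). Gbp11 in islets (adjusted p = 0.0656) and Gbp4 in P12.5 grafts minus islets (adjusted p = 0.0599) lost their calls. The block took the probe sets called from 602 to 266 in female and from 331 to 124 in male grafts, and the kidney covariate took those of female grafts to 7. A fit on only the arrays of the groups compared gave 305 in female and 13 in male grafts. Array medians subtracted gave 542 and immune markers 978 in male grafts. Over both donor sexes 1408 became 893 with kidney and 2132 with immune markers, and between female grafts and islets 3911 became 91 and 909 in NP, and 1438 became 585 and 40 at P12.5. Each measured member had a single probe set, so no other one could be tried, and the marker covariates were run for GBP genes.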

Other observations

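Over the 20 arrays the genes most like Gbp3 in level were Sp100 (r = 0.979), Gas1 (0.978) and Arhgdib (0.977), and those most like Gbp9 were Plekho2 (0.957), Elf4 (0.957) and Rnf213 (0.952). Iigp1 (0.97) was second for Gbp4 and Irgm1 (0.967) first for Gbp7, both interferon-inducible GTPases. These genes were named after their values were seen, and the r values are descriptions over arrays that share the contrast of grafts and islets.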
